A study of Mus musculus with 2 samples.

Results

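The genes described here are 44 genes of mitosis and of the passage from G2 into mitosis, out of 17215 genes listed in the series. They were taken from a list of mouse symbols grouped by role, drawn up with earlier results of these data known, and all 44 were found through the NCBI gene numbers of the deposited tables. All cells, in both groups and with no genetic change stated, were MC3T3-E1, a clonal pre-osteoblast line derived from newborn mouse calvaria, grown in alpha-modified Eagle's medium with serum. The cells of one culture received 100 µM of formaldehyde, a small aldehyde able to link proteins to each other and to DNA, and those of the other received 300 µM. Each dose has 1 RNA sequencing library. Untreated cells were not analysed here, and the length of exposure is not given in the sources used here. With 1 library per dose no test was possible, no p-value was computed, and each difference below is one between 2 libraries, with no spread between replicates to set it against.

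Cells enter mitosis when cyclin B activates the kinase Cdk1. Condensins then compact the chromosomes, kinetochores assembled on centromeric chromatin attach them to the spindle, and a checkpoint holds anaphase back until every chromosome is attached. The anaphase-promoting complex (APC/C) with its activator Cdc20 then marks cyclin B and securin for destruction, separase cleaves cohesin, and cytokinesis divides the cell. Most of these messengers are made in G2 and M, so in a culture their level follows the share of cells in those phases as well as the amount per cell. In bulk RNA, fewer cells in G2 and M and less of the messenger per such cell cannot be told apart.

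Levels are in FPKM, a fragment count divided by transcript length and by library size, so they can be compared between genes. The ratio given throughout is log2 of FPKM + 1 at 300 µM over FPKM + 1 at 100 µM, called the log2 ratio, and genes at or beyond 2-fold on that scale are called higher or lower. The libraries held an estimated 18500000 and 19000000 fragments at 100 µM and 300 µM. Every member had at least 160 estimated reads in each library, and exact 95% intervals of the ratios had a median half-width of 0.13 on the log2 scale. Such intervals cover counting error only. Of 10 osteoblast lineage markers, 9 reached a mean of 1 FPKM, although Bglap was listed at 0 in the first library and 0.49 FPKM in the second, and Alpl at 0.98 and 1.06 FPKM. Of 18 markers of other cell types, 17 were found and 1 reached that mean, the macrophage gene Cd68 at 2.57 FPKM and 0.77 FPKM. The summed level of these 17 was 3.71 FPKM and 2.62 FPKM, and Fabp4, Plin1, Adgre1, Kdr, Myog and Epcam were at 0 in both libraries.

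The promoters of these genes share letters that the choice of members did not use. Many genes of G2 and M carry the cell cycle genes homology region (CHR), which is bound by the DREAM repressor in resting cells and by complexes of the MuvB core with B-MYB and FOXM1 in dividing cells, and CCAAT boxes bound by NF-Y. Promoter windows of 300 bases, from 250 before to 50 after the annotated start, were found in RefSeq of build GRCm38.p6 for 37 of the 44 genes (39 windows, since Ect2 and Prc1 have 2 each), with none for Aurkb, Cdc25c, Incenp, Kif20a, Smc4, Spc24 and Tpx2. The CHR letters TTTGAA, on either strand, occurred in 30 of 39 windows (76.9%), against 1253 of 10472 windows of compared genes and 17.9% of all 32851 windows. Within 50 bases of the start they occurred in 27 windows (69.2%), against 3.1% for compared genes. CCAAT on either strand, with overlapping matches counted, occurred in 32 windows (82.1%) against 38.2%, and both sets of letters in 27 windows (69.2%) against 4.98%. The variants TTCGAA or TTTAAA were in 13 windows (33.3%, against 11.1%). The E2F letters TTTGGCGC, TTTCCCGC, TTTGCCGC or TTTCGCGC were in 3 windows (7.69%, against 4.26%). A match is a description of the letters, and no binding was measured.

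The windows printed here belong to genes that lay at the extremes of the comparison below, with Cdc20 as one that hardly differed. Each runs 5′ to 3′ along the gene, from RefSeq, GRCm38.p6, with TTTGAA and CCAAT on either strand in capitals. Ube2c, Pttg1 and Ccnb2 were at the upper end, and Mki67, Cenpf and Espl1 at the lower.
Ube2c (chr2:164769679-164769978, plus strand): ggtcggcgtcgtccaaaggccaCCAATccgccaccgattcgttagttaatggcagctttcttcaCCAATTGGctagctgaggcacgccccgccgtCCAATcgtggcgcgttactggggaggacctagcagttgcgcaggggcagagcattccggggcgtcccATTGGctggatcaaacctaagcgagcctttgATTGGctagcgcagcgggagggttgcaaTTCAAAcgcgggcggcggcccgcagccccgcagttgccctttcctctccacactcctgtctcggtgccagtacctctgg
Pttg1 (chr11:43425932-43426231, minus strand): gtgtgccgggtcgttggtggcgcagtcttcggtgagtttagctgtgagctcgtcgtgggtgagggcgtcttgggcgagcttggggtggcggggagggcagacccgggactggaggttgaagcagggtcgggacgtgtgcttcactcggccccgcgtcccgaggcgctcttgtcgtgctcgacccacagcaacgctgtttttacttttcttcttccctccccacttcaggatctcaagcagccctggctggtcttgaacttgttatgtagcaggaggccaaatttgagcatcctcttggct
Ccnb2 (chr9:70421505-70421804, minus strand): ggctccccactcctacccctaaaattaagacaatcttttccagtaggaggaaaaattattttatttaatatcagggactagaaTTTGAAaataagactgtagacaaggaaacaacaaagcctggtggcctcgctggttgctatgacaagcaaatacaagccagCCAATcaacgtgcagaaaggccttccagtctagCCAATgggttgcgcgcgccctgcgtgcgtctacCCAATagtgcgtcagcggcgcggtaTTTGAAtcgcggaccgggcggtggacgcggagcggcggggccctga
Mki67 (chr7:135716330-135716629, minus strand): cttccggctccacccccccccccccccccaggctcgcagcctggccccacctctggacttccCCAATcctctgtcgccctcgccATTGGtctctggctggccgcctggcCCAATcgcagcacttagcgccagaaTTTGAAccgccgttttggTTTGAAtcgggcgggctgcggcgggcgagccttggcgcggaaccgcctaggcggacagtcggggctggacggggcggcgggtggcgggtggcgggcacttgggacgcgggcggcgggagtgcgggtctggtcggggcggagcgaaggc
Cenpf (chr1:189688037-189688336, minus strand): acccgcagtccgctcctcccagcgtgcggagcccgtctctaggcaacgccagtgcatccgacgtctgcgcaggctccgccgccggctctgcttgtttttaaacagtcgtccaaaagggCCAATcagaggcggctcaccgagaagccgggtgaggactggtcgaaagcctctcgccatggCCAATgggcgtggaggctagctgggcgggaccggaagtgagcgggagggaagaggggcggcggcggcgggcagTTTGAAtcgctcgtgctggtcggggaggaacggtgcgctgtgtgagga
Espl1 (chr15:102296043-102296342, plus strand): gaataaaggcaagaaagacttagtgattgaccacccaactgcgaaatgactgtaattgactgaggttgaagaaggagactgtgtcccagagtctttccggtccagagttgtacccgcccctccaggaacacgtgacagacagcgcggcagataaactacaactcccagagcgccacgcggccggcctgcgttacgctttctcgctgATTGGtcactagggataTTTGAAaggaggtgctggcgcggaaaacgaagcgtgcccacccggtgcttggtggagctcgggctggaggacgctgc
Cdc20 (chr4:118437294-118437593, minus strand): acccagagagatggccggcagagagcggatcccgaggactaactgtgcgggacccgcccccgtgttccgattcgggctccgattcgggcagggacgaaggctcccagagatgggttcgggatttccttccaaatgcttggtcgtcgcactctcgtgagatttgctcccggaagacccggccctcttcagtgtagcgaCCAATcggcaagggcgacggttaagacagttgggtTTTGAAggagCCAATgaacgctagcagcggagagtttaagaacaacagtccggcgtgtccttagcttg

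Counted from the start at 0, the first base of TTTGAA lay at -29 in Ube2c (on the opposite strand), at -167 and 4 in Ccnb2, at -116 and -98 in Mki67, at 2 in Cenpf, at -27 in Espl1 and at -18 in Cdc20. The Pttg1 window held neither set of letters, and nor did those of Birc5, Mad2l1 and Nuf2. The 3 genes that were at least 2-fold lower all had both sets, as did Ube2c among the 2 higher genes with a window. Above the median gene, 23 of 29 member windows held TTTGAA (79.3%), and below it 7 of 10 (70.0%).

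**Figure D1:**
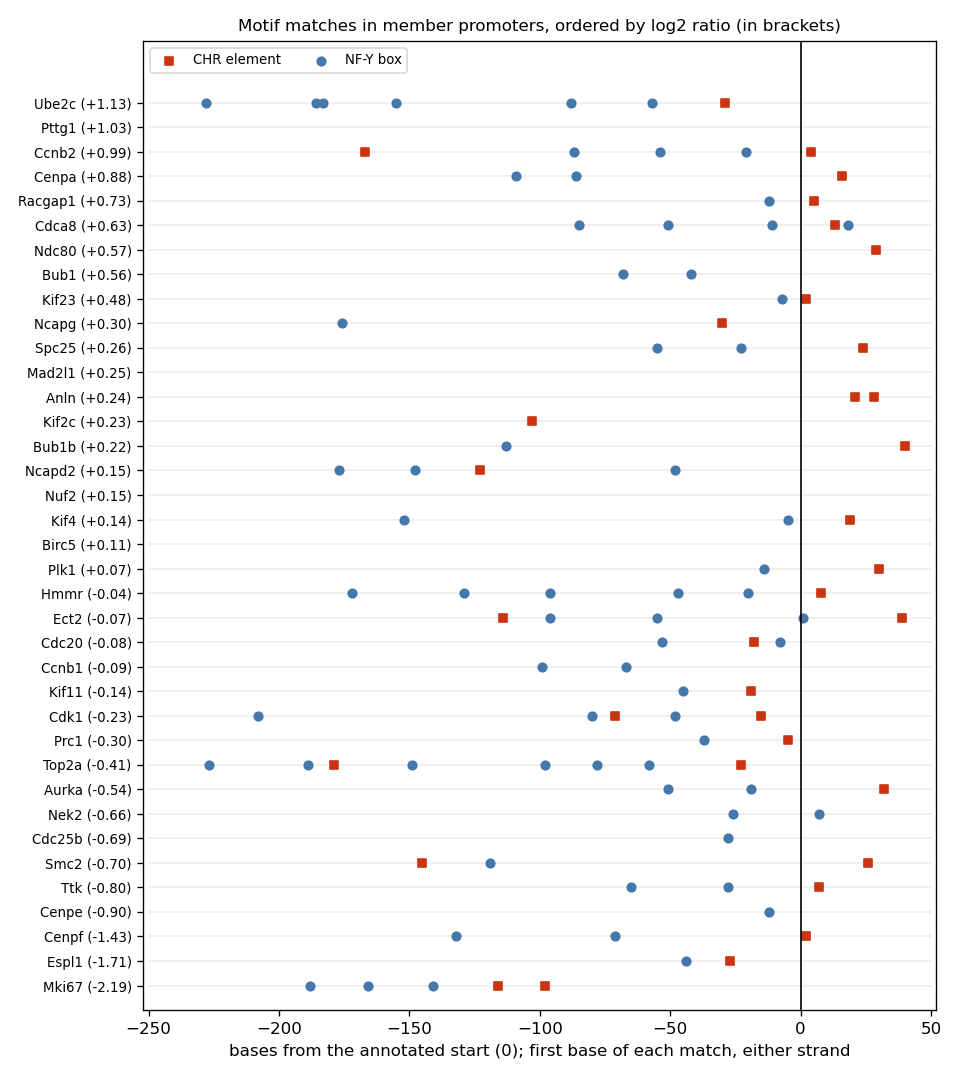
Positions of CHR (TTTGAA, squares) and NF-Y (CCAAT, circles) letters on either strand in the promoter windows of 37 genes, in bases from the annotated start, with 1 window per gene. Genes are ordered by their log2 ratio, in brackets. Most squares lie within 50 bases of the start. The only squares of Mki67 (-116 and -98), Kif2c (-103) and Ncapd2 (-123) lie further out, and 9 genes, Pttg1 among them, have none.

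Most members, 38 of 44, lay within 2-fold between the doses. All 44 passed the filter of 1 FPKM on the mean of both libraries, as did 10123 genes in all, called the compared genes. At the higher dose 3 members were 2-fold or more up, beside 6.09% of compared genes, and 3 were 2-fold or more down, beside 29.8%. Thus 6 of 44 (13.6%) lay beyond 2-fold in either direction, and 35.9% of all compared genes did. Among the 7095 compared genes within the members' range of 4.53 to 97.14 FPKM at 100 µM, 5.03% were higher and 35.1% lower. The median log2 ratio of the members was 0.09 (24 above 0 and 20 below), beside -0.30 for all compared genes (4089 above 0 and 6028 below).

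The balance of the calls depends on how the libraries are scaled. Relative to the median gene, which shifts every log2 ratio up by 0.30, 6 members were higher (14.5% of all genes) and 3 lower (22.3%), and 33 of 44 lay above the median gene. With a TMM factor, 7 were higher (17.0% of all genes) and 3 lower (22.3%). On a scale of equal sums, which shifts ratios down by 0.38, 0 were higher (2.31%) and 8 lower (38.7%). Mki67, Espl1 and Cenpf were lower on each of these scales. Small ratios changed sign, 9 members' when centred or with TMM and 13 members' on equal sums, so a sign below is that of the deposited scale. Ranked by level among the 17215 genes, which no scaling changes, 29 members stood higher in the ranking at 300 µM and 15 lower, and their median percentile was 80.4 at 100 µM and 84.1 at 300 µM. The share of all genes that rose in rank was not computed, so those counts have nothing to stand beside. Fewer genes reached 1 FPKM at 300 µM (9332) than at 100 µM (10206), and a gene could rise in rank without a higher level. Ccnb1 went from rank 2662 to 2454 although its FPKM was lower at 300 µM.

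The range from the lowest to the highest member was wider at 300 µM. The highest member was 21.4 times the lowest at 100 µM, with Birc5 at 97.1 FPKM and Cdc25c at 4.53 FPKM. At 300 µM the highest was 99.9 times the lowest, with Ube2c at 167 FPKM and Cenpf at 1.67 FPKM. Not every set widened, as the same ratio among the condensin subunits was 3.36 at 100 µM and 3.02 at 300 µM. Such a ratio was not computed for all compared genes. Summed over the 44 genes, the level was 1175 FPKM at 100 µM and 1344 FPKM at 300 µM, which is 0.22% and 0.194% of all FPKM in those libraries.

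**Figure D2:**
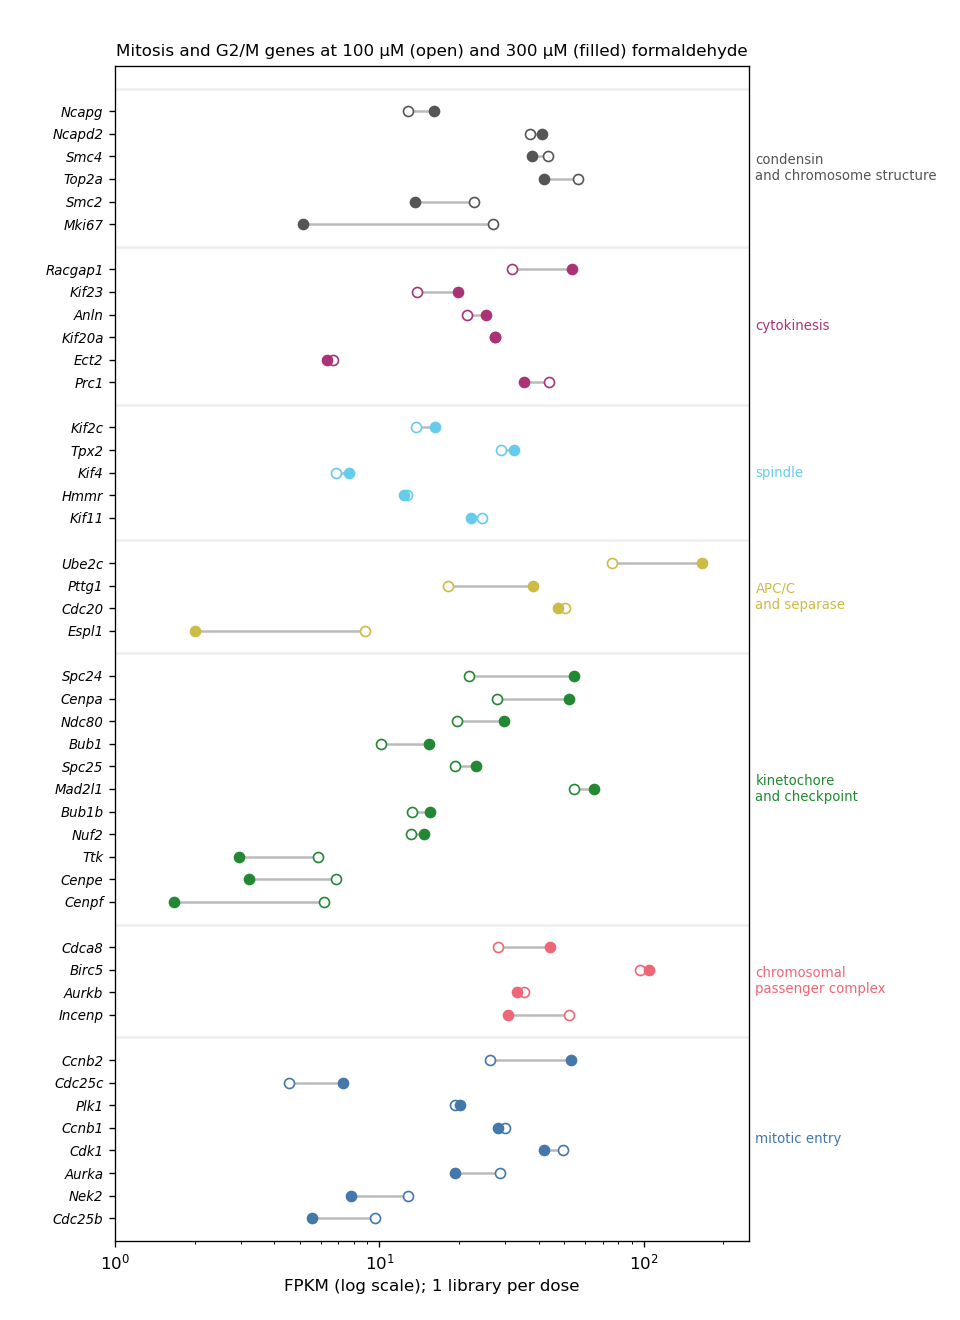
FPKM of each of the 44 genes on a log axis, at 100 µM (open circles) and 300 µM (filled circles), 1 library each, grouped by role. The longest lines leftward are those of Mki67, Espl1 and Cenpf, and the longest rightward those of Spc24, Ube2c, Pttg1 and Ccnb2.

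The 8 genes of mitotic entry had a median log2 ratio of -0.16, with none beyond 2-fold (0 higher and 0 lower). The B cyclins, which activate Cdk1, differed. Ccnb2 (cyclin B2) measured 26.2 FPKM with 100 µM and 53.1 FPKM with 300 µM, a log2 ratio of 0.99, just inside 2-fold. Ccnb1 (cyclin B1) stood at 30 and 28.2 FPKM (-0.09), although 42.1% of the 50-base words of its transcript occur in a pseudogene and other copies, so its level is uncertain. The level of Ccnb1 was thus 1.15 times that of Ccnb2 at 100 µM and 0.531 times at 300 µM. Cdk1, the kinase that drives entry, stood at 49.3 and 42.0 FPKM (-0.23).

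The phosphatases that activate Cdk1 also differed in direction. Cdc25b stood at 9.62 and 5.57 FPKM (log2 ratio -0.69) and Cdc25c at 4.53 and 7.31 FPKM (0.59). Cdc25b was therefore the more abundant at 100 µM, at 2.12 times Cdc25c, and the less abundant at 300 µM, at 0.762 times. Plk1, the Polo-like kinase that promotes entry and spindle assembly, was at 19.2 and 20.2 FPKM (0.07). The centrosomal kinase genes were both lower within 2-fold, Aurka (Aurora A) at 28.6 and 19.4 FPKM (-0.54) and Nek2 at 12.8 and 7.79 FPKM (-0.66).

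Kinetochore and checkpoint genes covered a wide range. The 11 genes had a median log2 ratio of 0.25 and ran from -1.43 (Cenpf) to 1.28 (Spc24). Of the 11, 8 were above 0, beside 4089 of 10123 compared genes. All 4 subunits of the Ndc80 complex, the outer kinetochore rod that grips microtubules, were above 0, although Spc25 and Nuf2 were below 0 on equal sums. Spc24 measured 21.9 FPKM with 100 µM and 54.6 FPKM with 300 µM, 2.49 times as high, with a counting interval of 1.18 to 1.46 for the log2 of that ratio. Ndc80 stood at 19.6 and 29.6 FPKM (log2 ratio 0.57), Spc25, the partner of Spc24, at 19.2 and 23.3 FPKM (0.26) and Nuf2, the partner of Ndc80, at 13.1 and 14.7 FPKM (0.15). The 4 subunits lay within 1.67 times of each other at 100 µM and within 3.72 times at 300 µM, since Spc24 was 1.14 times Spc25 at the lower dose and 2.35 times at the higher.

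The 3 centromere protein genes lay on both sides of 0. Cenpa, the histone H3 variant that marks centromeres, measured 27.8 FPKM with 100 µM and 51.99 FPKM with 300 µM (log2 ratio 0.88). Cenpe, a kinesin that moves chromosomes to the spindle equator, stood at 6.87 and 3.21 FPKM (-0.90). Cenpf, a large coiled-coil protein of the outer kinetochore, stood at 6.19 and 1.67 FPKM (-1.43). The short Cenpa messenger and the long Cenpe and Cenpf messengers thus differed in sign, and the level of Cenpf was 0.223 of that of Cenpa at 100 µM and 0.0321 at 300 µM.

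Of the checkpoint genes, 3 of 4 were above 0 (Bub1 alone on equal sums), beside 4089 of 10123 compared genes, and none was beyond 2-fold. Bub1, a kinase that recruits the checkpoint to kinetochores, stood at 10.1 and 15.4 FPKM (log2 ratio 0.56). Its relative Bub1b (BubR1), part of the complex that inhibits Cdc20, stood at 13.3 and 15.6 FPKM (0.22), and Mad2l1 (Mad2), another part of that complex, at 54.4 and 64.7 FPKM (0.25). Ttk (Mps1), the kinase upstream of both, went the other way at 5.86 and 2.94 FPKM (-0.80), with a counting interval of -1.28 to -0.72 for the log2 of the plain ratio.

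The APC/C group held 3 of the 6 genes beyond 2-fold, with both directions among its 4 members. Ube2c, the ubiquitin-conjugating enzyme that works with the APC/C, measured 75.9 FPKM with 100 µM and 167 FPKM with 300 µM (log2 ratio 1.13, counting interval 1.04 to 1.23). Counting intervals here are for the log2 of the plain ratio, without the added 1. Pttg1 (securin), the inhibitor of separase and an APC/C substrate, stood at 18.2 and 38.1 FPKM (1.03, interval 0.87 to 1.26). Both were higher at 300 µM. Espl1 (separase), the protease that opens cohesin, stood at 8.83 and 2.0 FPKM (-1.71), 4.42 times as high at the lower dose. The log2 of its plain ratio was -2.14 (interval -2.34 to -1.94). The messenger level of the inhibitor was 2.06 times that of the protease at 100 µM and 19.0 times at 300 µM. These 2 transcripts differ in length, with 948 bases for Pttg1 and 6658 for Espl1. After removal of the length and GC trend, described below, their log2 ratios were 0.29 and -1.22, beside -0.30 for the median gene. Protein was not measured. Cdc20, the APC/C activator, was at 50.3 and 47.4 FPKM (-0.08), and Ube2c was 1.51 times Cdc20 at 100 µM and 3.52 times at 300 µM.

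The chromosomal passenger complex corrects faulty attachments and later guides cytokinesis, and its 4 genes had a median log2 ratio of 0.01. Its kinase gene Aurkb (Aurora B) stood at 35.4 and 33.2 FPKM (-0.09) and Birc5 (survivin) at 97.1 and 105 FPKM (0.11). The scaffold gene Incenp stood at 51.95 and 30.66 FPKM (-0.74) and Cdca8 (borealin) at 28.2 and 44.3 FPKM (0.63). Incenp was the more abundant of these last 2 at 100 µM and the less abundant at 300 µM, with Cdca8 at 0.542 and 1.44 times Incenp.

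Spindle genes were the most even group, with all 5 between -0.14 and 0.23 and a median of 0.14. Kif11 (Eg5), the kinesin that pushes the poles apart, stood at 24.5 and 22.2 FPKM (log2 ratio -0.14). Tpx2, which activates Aurora A on the spindle, stood at 28.9 and 32.4 FPKM (0.16), so that Aurka was 0.991 times Tpx2 at 100 µM and 0.599 times at 300 µM. The microtubule-depolymerising kinesin gene Kif2c stood at 13.7 and 16.2 FPKM (0.23). Hmmr, a spindle-pole protein gene, and the chromokinesin gene Kif4 had log2 ratios of -0.04 and 0.14.

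Cytokinesis genes lay between -0.30 and 0.73, with a median of 0.12 over 6 genes. Centralspindlin, which bundles the midzone microtubules, had both of its genes above 0. Racgap1 stood at 31.7 and 53.4 FPKM (log2 ratio 0.73) and Kif23 at 13.9 and 19.8 FPKM (0.48), and Racgap1 was 2.28 times and 2.70 times Kif23. Anln (anillin), a scaffold of the contractile ring, stood at 21.4 and 25.4 FPKM (0.24). The midzone kinesin gene Kif20a, at 27.3 and 27.5 FPKM, and Ect2, the exchange factor that activates RhoA at the cleavage site, at 6.70 and 6.35 FPKM, were nearly level. Prc1, which crosslinks midzone microtubules, stood at 43.7 and 35.4 FPKM (-0.30).

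Genes of condensin and chromosome structure had the lowest median, -0.30, equal to that of all compared genes. The condensin ATPase genes were lower within 2-fold (Smc4 above 0 when centred), Smc2 at 22.9 and 13.7 FPKM (log2 ratio -0.70) and Smc4 at 43.3 and 37.9 FPKM (-0.19). The other condensin subunit genes were above 0, though below it on equal sums, Ncapg at 12.9 and 16.1 FPKM (0.30) and Ncapd2 at 37.1 and 41.4 FPKM (0.15). Top2a, the topoisomerase that untangles sister chromatids, stood at 56.4 and 42.1 FPKM (-0.41). The furthest member was Mki67, the surface coat protein of mitotic chromosomes and a marker of proliferation, at 26.9 FPKM with the lower dose and 5.12 FPKM with the higher (-2.19). The log2 of its plain ratio was -2.39 (counting interval -2.50 to -2.30). Mki67 ranked 2929th of all genes at 100 µM and 6102nd at 300 µM, and its level was 0.478 of that of Top2a at the lower dose and 0.122 at the higher.

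**Figure D3:**
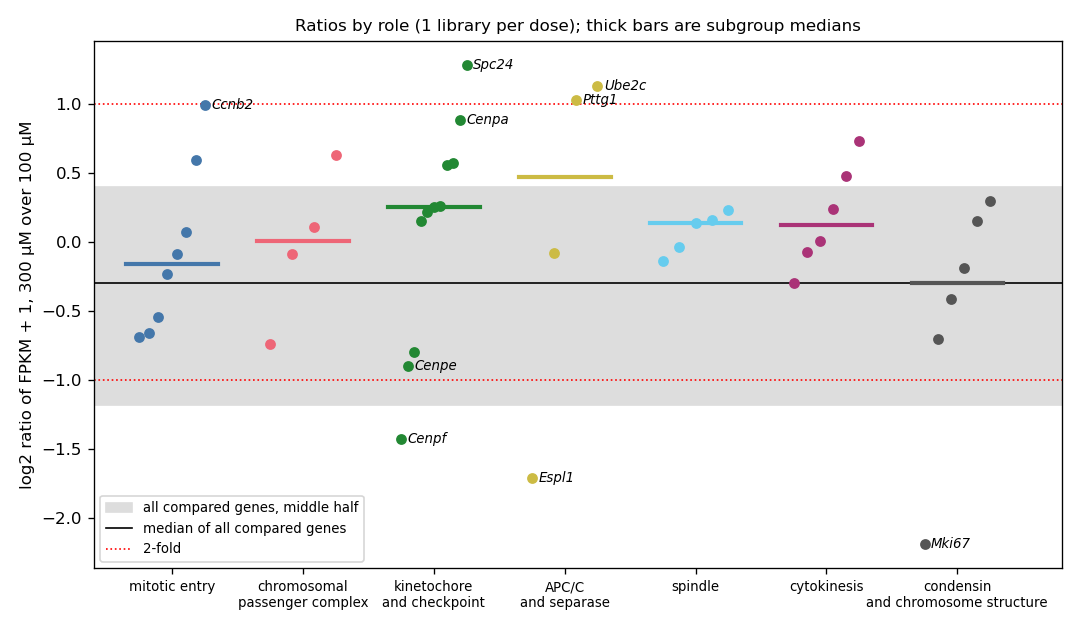
Log2 ratio of FPKM + 1, 300 µM over 100 µM, for each member by role, 1 library per dose. Thick bars are subgroup medians, the black line is the median of all compared genes (-0.30), the grey band their middle 50% and the dotted lines 2-fold. Subgroup medians run from -0.30 (condensin and chromosome structure) to 0.47 (APC/C and separase), and each group but spindle and cytokinesis has members on both sides of the black line.

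The members' ratios moved with the length of the messenger. Transcript length was taken from 1 representative transcript per gene in GENCODE release M21. Across the 44 genes, which share both libraries and are not replicates, Pearson's r of the log2 ratio with log2 length was -0.68 and Spearman's rho -0.55. Without the 2 longest, Cenpf and Mki67, r was -0.58 and rho -0.49. Over 10093 compared genes with a length, r was -0.39 and rho -0.41. The coding length gave r of -0.65 among members and -0.25 among all genes, the 3′ UTR length -0.13 and -0.33, and GC content 0.03 and 0.15.

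The 4 longest transcripts after that of Cenpf (11130 bases) were those of Mki67 (10061), Cenpe (7910), Mad2l1 (7557) and Espl1 (6658), and of these 5 all but Mad2l1 had a log2 ratio of -0.90 or less. The Mad2l1 transcript chosen is mostly 3′ UTR (6802 bases), so its place on this axis, and its estimated read number, depend on the transcript taken. At the other end, Pttg1 (948 bases), Ube2c (967) and Spc24 (1366) were the 3 higher genes, while Birc5, the shortest at 947 bases, had a log2 ratio of 0.11. Among transcripts of 3000 to 4000 bases, the 11 members had a median of 0.01 and the 1843 compared genes -0.56. Between 4000 and 6000 bases the medians were -0.10 for 10 members and -0.77 for 2006 genes. Above 6000 bases, 3 of 5 members and 53.0% of 1125 genes were lower. The part of length in these differences was not tested.

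Subtraction of the trend over all genes with length and GC content kept the median of all compared genes at -0.30. With 2-fold counted from 0 on that scale, Mki67 and Espl1 were still at least 2-fold lower, at -1.44 and -1.22. Cenpf was then at -0.56, Spc24 at 0.76, Ube2c at 0.35 and Pttg1 at 0.29, all within 2-fold. Counted from -0.30 instead, Mki67 stayed at least 2-fold lower, Espl1 fell within 2-fold and Spc24 was at least 2-fold higher. The group medians changed order as well: cytokinesis was at 0.48, kinetochore and checkpoint at 0.37, APC/C and separase at -0.06 and the chromosomal passenger complex at -0.52. Among these, only the passenger complex lay below the -0.30 of all compared genes.

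**Figure D4:**
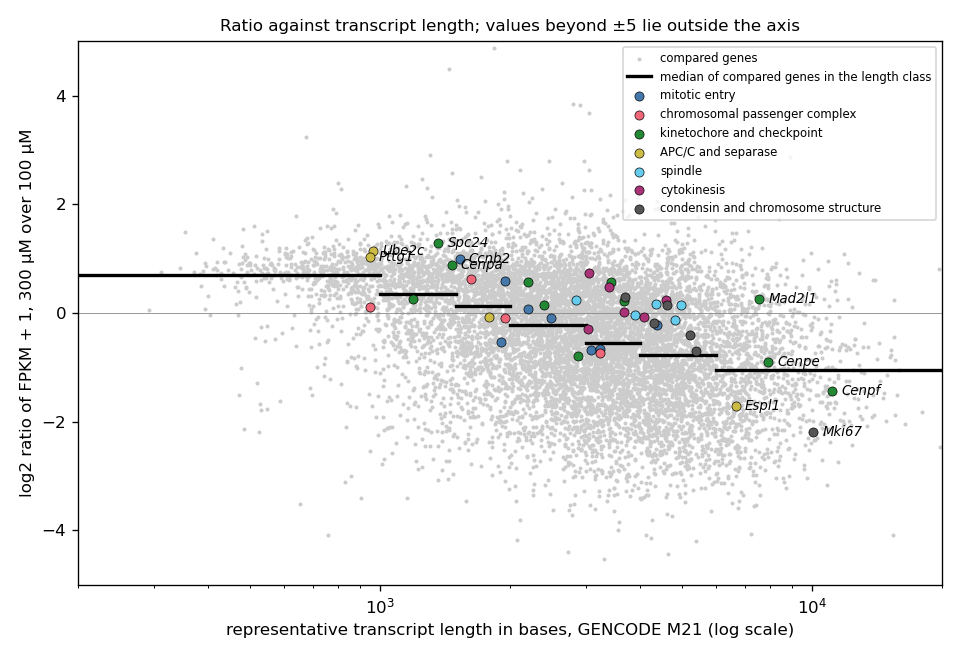
Log2 ratio of FPKM + 1, 300 µM over 100 µM, against the length of the representative transcript (log axis), with all compared genes in grey, their median per length class as black bars, and the 44 members in colour by role. The black bars step down from 0.70 for transcripts of up to 1000 bases to -1.06 above 6000, and the members run from Ube2c and Pttg1 at the upper left to Mki67 and Cenpf at the lower right.

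Other genes of the same machinery lay beyond 2-fold about as often as genes at large. Of 141 compared genes in 6 further lists of mitotic genes, 13 were up by 2-fold or more and 38 down, together 36.2%, beside 35.9% of all compared genes. Their median log2 ratio was -0.14, and their difference from the members was not tested. The counts of each list below stand beside 6.09% of all compared genes higher and 29.8% lower, and none was tested. Regulators of entry into mitosis had 0 of 22 higher and 6 lower, with a median of -0.40. Ccnf (cyclin F), a ubiquitin ligase subunit, measured 20.9 FPKM with 100 µM and 1.16 FPKM with 300 µM (-3.34). Cdc25a, the remaining CDC25 phosphatase gene, stood at 12.9 and 0.97 FPKM (-2.82). Wee1, a kinase that opposes the CDC25 phosphatases, stood at 14.3 and 2.52 FPKM (-2.12). Wee1 and Cdc25a, genes of an inhibitor and of an activator, were thus both lower. Not every such gene was lower: Pkmyt1 stood at 29.6 and 35.4 FPKM (0.25), and Cdc25c and Cdc25b had 0.59 and -0.69.

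Haspin, a histone kinase that positions the passenger complex, had a log2 ratio of -2.11, and Ccna2 (cyclin A2) stood at 45.5 and 22.2 FPKM (-1.01). Of the genes for proteins that act on CHR promoters, those of the transcription factors were nearly level, Foxm1 at 22.5 and 22.1 FPKM (-0.02) and Mybl2 (B-MYB) at 10.9 and 11.4 FPKM (0.05), although 23.8% of the words of Mybl2 are shared with other genes. Those of the MuvB core that were on the list, named after their values were seen, were below 0, Lin37 not so with the TMM factor. Lin54, the CHR-binding subunit of that core, stood at 7.17 and 1.89 FPKM (-1.50), and Lin9, Lin52 and Lin37 had -0.97, -0.65 and -0.31. Other genes of the core were not looked up, and 6028 of the 10123 compared genes were below 0. Among 17 APC/C subunits and regulators 1 was higher, the small subunit Anapc13 (1.02), and 2 were lower, the APC/C inhibitor Fbxo5 (Emi1) at 42.5 and 7.19 FPKM (-2.41) and the subunit Cdc27 at 16.6 and 4.75 FPKM (-1.61). Fzr1 (Cdh1), the activator that replaces Cdc20 after mitosis, had -0.40.

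The 38 further kinetochore genes had 7 higher and 9 lower, beside 6.09% and 29.8% of all compared genes. Mad1l1 (Mad1), which recruits Mad2 to kinetochores, stood at 2.96 and 19.7 FPKM (log2 ratio 2.38), and the inner kinetochore genes Cenpp, Cenps and Cenpn had 1.64, 1.41 and 1.34. Zwint, a partner of the kinetochore scaffold Knl1, stood at 110 and 19.8 FPKM (-2.42), while Mis12, Ska2 and Hjurp, the chaperone that deposits Cenpa, had -1.98, -1.96 and -1.69. Knl1 itself had -0.65 and Bub3, the partner of Bub1, 0.31. Cenpa and its chaperone thus lay on opposite sides.

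Among 34 compared spindle and centrosome genes, 3 were higher and 10 lower (median -0.16), again beside 6.09% and 29.8% of all compared genes. Those higher were Haus1 (log2 ratio 1.10), Cdk5rap2 (1.09) and Haus4 (1.03), and the furthest below were Gtse1 (-2.32), Fam83d (-1.92), Haus3 (-1.82) and the centriole gene Stil (-1.77). Of 11 further cytokinesis genes, 0 were higher and 4 lower (median -0.32): Nedd9 at 15.4 and 0.25 FPKM (-3.71), Arhgap11a (-2.55), Vps4b (-1.62) and Cep55 (-1.56). Of 19 genes listed under condensin and cohesin, 2 were higher, the cohesin subunit Stag1 (1.31) and Cdca3 (1.23), and 7 were lower (median -0.75). Those furthest below were Cdca2 (-2.04), the cohesin acetyltransferase Esco1 (-1.99), the cohesin releaser Wapl (-1.84) and the loader Mau2 (-1.51), whereas the condensin subunit Ncaph had 0.24.

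Genes that license and fire replication origins had a median log2 ratio of 0.12. Of the 23, 3 were higher and 5 lower, together 34.8%, near the 35.9% of all compared genes. The difference between those 23 genes and the 44 members was not tested.

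**Figure D5:**
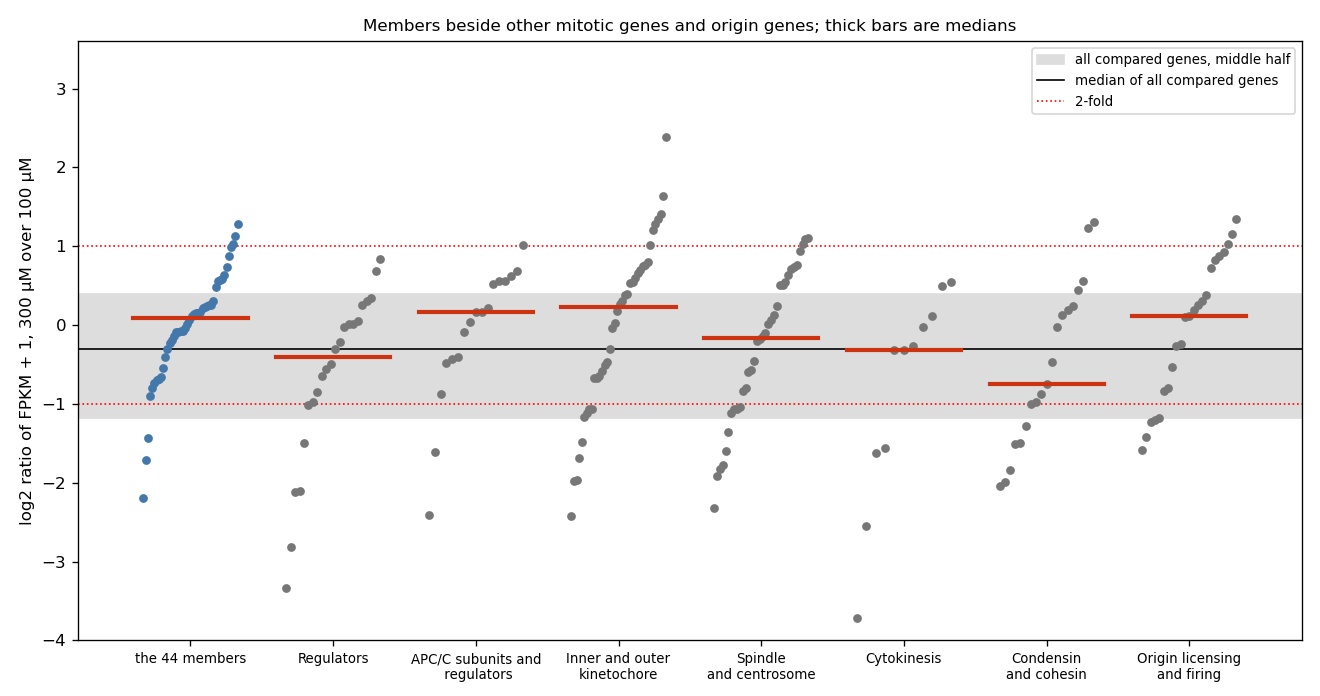
Log2 ratio of FPKM + 1, 300 µM over 100 µM, for the 44 members (blue) beside 6 further lists of mitotic genes and the origin genes (grey), 1 library per dose, with list medians as thick bars, the middle 50% of all compared genes as the grey band and 2-fold as dotted lines. The lowest points are Nedd9 (-3.71) and Ccnf (-3.34), both outside the members, whose lowest is Mki67 (-2.19).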

How the data were processed

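RNA was sequenced from MC3T3-E1 cells at 2 doses of formaldehyde, 1 library per dose, so p-values could not be had. The authors deposited 1 table of gene-level FPKM per library, per the file headers, with values of 2 decimals. The submitters' processing notes name the aligner Bowtie2 and the quantifier RSEM but no versions. Which genome build and annotation they used is not given in the sources used here. FPKM is relative to a library's own total, and RSEM divides reads among isoforms and copies, which affects genes with near-identical copies.

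NCBI gene numbers gave symbols through RefSeq of GRCm38 (17179 of 17215 genes). Genes whose mean reached 1 FPKM were compared, with a pseudocount of 1, which understates the change of low genes. Members, subgroups and lists were chosen with earlier results of these data known. All 44 members were to be named; of each further list, up to 4 genes per direction beyond 2-fold and 9 fixed genes. Of 143 entries in those lists, 142 were found. Transcript properties and shared 50-base words came from GENCODE release M21 (10093 of 10123 compared genes had them), with 1 principal coding transcript per gene where available.

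Depth was read from the steps of low values in genes with 1 annotated transcript of up to 1800 bases: 1 read corresponded to an FPKM of 54 (100 µM) or 52.5 (300 µM) divided by the length in bases, which put 64.0% of 211 and 63.0% of 184 low values no more than 0.12 reads from a whole number. Intervals are exact (Clopper-Pearson) on the reads so estimated. They cover counting error only, since PCR copies of one molecule cannot be recognised. The steps were tested on simulated data. Protein sequences were not used here, so protein length and degradation motifs were not examined. Alternatives were other pseudocounts, filters, fold sizes and scalings, and removal of a quadratic trend with log2 transcript length and GC content. The same with coding length was chosen after seeing the data. Scripts ran in Python 3.11.15 with scipy 1.17.1, pandas 2.3.3, numpy 2.4.6 and, for plots, matplotlib 3.10.9.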

Additional observations from a re-analysis of the deposited data

How the results depend on the processing

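The same 3 genes were higher (Spc24, Ube2c, Pttg1) and the same 3 lower (Mki67, Espl1, Cenpf) without the filter. Counts of members higher and lower were 4 and 4 with a pseudocount of 0.1, 2 and 1 with a pseudocount of 5, 3 and 1 of 36 at a mean of at least 10 FPKM, 8 and 9 at 1.5-fold, and 0 and 2 at 3-fold. They were 6 and 3 centred on the median gene, 7 and 3 with the TMM factor, 0 and 8 on equal sums, 1 (Mad2l1) and 2 with the transcript length and GC trend removed, and 1 (Bub1) and 2 with coding length in its place. None of those 6 genes changed sign under any of these, while Mad2l1 was at -0.12 on equal sums. Both trend removals kept the median of all compared genes (-0.30 with transcript length), and 2-fold was counted from 0. Counted from that median with transcript length, Spc24, Bub1, Mad2l1 and Racgap1 were at least 2-fold higher and Mki67 alone at least 2-fold lower. Shares of all compared genes were computed for the deposited, centred, TMM and equal-sum scales only. Counts at the other settings have no such share beside them, so they cannot be set against genes at large. The median log2 ratio of the members was 0.39 centred, 0.47 with the TMM factor, -0.28 on equal sums, 0.23 with the transcript length trend removed and 0.38 with that of coding length. Subgroup medians are given in the order mitotic entry, chromosomal passenger complex, kinetochore and checkpoint, APC/C and separase, spindle, cytokinesis, condensin and chromosome structure. They were 0.14, 0.31, 0.55, 0.77, 0.44, 0.42, 0.00 centred; 0.23, 0.40, 0.64, 0.86, 0.50, 0.51, 0.09 with the TMM factor; and -0.52, -0.36, -0.12, 0.11, -0.20, -0.24, -0.67 on equal sums. With the transcript length trend removed they were -0.10, -0.52, 0.37, -0.06, 0.33, 0.48, 0.17, and with that of coding length -0.15, -0.35, 0.42, 0.26, 0.41, 0.61, 0.30. At a mean of at least 10 FPKM, kinetochore and checkpoint was at 0.41 (8 genes), APC/C and separase at 1.03 (3 genes) and cytokinesis at 0.24 (5 genes), since fewer genes were compared. No paired analysis was possible because each dose has 1 library.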

Other observations

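The 8 subunits of augmin (Haus1 to Haus8), a complex that branches spindle microtubules, were looked at after their values were seen. Haus1, at 16.8 FPKM under the lower dose and 37.1 FPKM under the higher, and Haus4, at 11.9 and 25.4 FPKM, were at least 2-fold higher. Haus3, at 22.4 and 5.64 FPKM, and Haus2, at 19.4 and 8.75 FPKM, were at least 2-fold lower. The log2 ratios of Haus7, Haus8 and Haus6 were 0.73, 0.24 and -0.59, and that of Haus5, 78.3% of whose words occur in other genes, was 0.64. Subunits of 1 complex thus lay on both sides. The transcripts of Haus1 and Haus4 have 1003 and 1587 bases, those of Haus2 and Haus3 3154 and 2073, and that of Haus6 6158. The part of length in this was not tested.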
